A study of Mus musculus with 6 samples.

Results

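The 61 genes described here encode the secreted Wnt proteins, the machinery that secretes them, their receptors, their extracellular modulators and a small set of nuclear factors and feedback regulators. They were chosen by symbol, and all of them came from a table of 22320 genes. The symbols were those of the Wnt, Fzd, Sfrp, Dkk and Rspo families together with Frzb, Wif1, Lrp5, Lrp6, Ror1, Ror2, Ryk, Lgr4, Lgr5, Lgr6, Axin2, Lef1, Tcf7, Nkd1, Nkd2, Notum, Znrf3, Rnf43, Porcn and Wls. Messenger RNA had been sequenced from whole testes of Arid4bSCKO mice (genotype Arid4b-/Flox; Amh-cre) and control mice (Arid4b+/Flox; Amh-cre) on postnatal day 1.5, on a hybrid background of C57BL6/J and 129/SvEv. Each group had 3 pools of 4 testes. Both genotypes, controls included, carried a floxed Arid4b allele and the Cre transgene. The promoter of Amh drives Cre in Sertoli cells, which nurse the germ cells inside the testis cords. The Arid4bSCKO mice had a null allele in place of the wild-type one, so their other cells also carried 1 functional copy fewer. The ARID4B protein works in chromatin with the SIN3 repressor complex.

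Wnt proteins are lipid-modified signals. PORCN attaches the lipid, WLS carries the ligand to the cell surface, and Frizzled receptors bind it together with LRP5 or LRP6. Binding spares beta-catenin from destruction, and beta-catenin then works with TCF and LEF proteins in the nucleus, whereas ROR and RYK receptors mediate signalling that does not need beta-catenin. SFRP, DKK, WIF1 and NOTUM proteins hold the signal back. ZNRF3 and RNF43 remove Frizzled proteins from the surface, and R-spondins, bound by LGR receptors, take ZNRF3 and RNF43 away. In the mouse gonad RSPO1 and WNT4 promote the ovarian fate and ZNRF3 opposes it in the testis, while WNT5A and WNT6 have been linked to the upkeep of spermatogonial stem and progenitor cells.

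The values were the authors' group means of log2(normalized count + 1), called levels below, and their comparison of the groups, without a value per pool. A difference is Arid4bSCKO minus control on that scale. Its 95% interval was derived from the deposited p, and a fold is 2 to the power of the difference. Genes with few reads have their folds understated by the added 1. The depth was about 17.5 M reads per library in Arid4bSCKO and 18.6 M in control, as estimated from the worth of a read. The targeted gene, Arid4b, stood at a level of 8.68 in Arid4bSCKO and 10.19 in control, or 35.1% of control. Testis markers were present, with the Sertoli cell gene Amh at 12.63 in Arid4bSCKO and 14.25 in control. The 5 fetal Leydig cell markers lay between 11.36 and 14.02 in Arid4bSCKO and between 11.43 and 14.12 in control, with a median difference of -0.08 and no call. Several marker lists moved between the groups, and their part in the differences below was not tested. The 8 Sertoli cell markers gave 4 lower calls (Dhh, Dmrt1, Gata4 and Inha) and 1 higher call (Cldn11). Amh had no call (adjusted p = 0.111 in the moderated test described below), nor did Sox9 and Wt1. The normalized counts of all 8 Sertoli cell markers summed to 35896 in Arid4bSCKO and 65376 in control. Inha (12766 in Arid4bSCKO and 23969 in control) and Amh (6330 and 19510) were the largest parts of the control sum. Single markers ranged from 32.4% (Amh) to 193% (Cldn11) of control, and the middle difference of the list was -0.55. All 5 macrophage markers found in the table were called higher (summed normalized counts of 2322 in Arid4bSCKO and 1328 in control), as were 4 of 6 immediate-early genes (7759 and 4648). Of 5 germ cell markers 4 had negative differences and 1, Dppa4, was called lower, with a median difference of -0.43 and summed counts of 5967 in Arid4bSCKO and 8022 in control. The 4 markers of the surface epithelium, Upk3b, Krt19, Msln and Lrrn4, differed by 0.39 to 0.44 and none was called, at summed counts of 2556 in Arid4bSCKO and 1915 in control. The 4 peritubular myoid markers had positive differences (median 0.24) and 1, Tagln, was called higher. The 5 endothelial markers had negative differences (median -0.22) without a call. Of 5 mesonephric and epididymal epithelium markers 4 had negative differences (median -0.56), without a call. The stroma list gave 1 higher call (Lum) and 1 lower call (Nr2f2), and the erythroid and granulosa lists gave none. In whole testes, fewer cells of a type and less RNA per cell cannot be told apart.

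The question was which parts of the Wnt system differed when Arid4b was deleted with Amh-cre. Wnt11 and Wnt2b, 2 ligand genes, and Lgr5, an R-spondin receptor gene, were higher in the Arid4bSCKO testes. The antagonist gene Sfrp4, the Frizzled gene Fzd3, the ubiquitin ligase gene Rnf43 and the nuclear factor gene Tcf7 were lower. Wnt10b was also higher, from very few reads. Most of the system showed no call, including the ligand genes read most (Wnt6 and Wnt5a), Wls, Lrp5 and Lrp6 and the pathway target Axin2. Wnt11 alone among the members passed the FDR threshold of 0.05 in the authors' deposited table (FDR = 0.0377), where 0.26% of the 22320 genes passed. A moderated limma test of the same means, which shares the estimate of spread between genes of similar level, was run on the 59 members with a mean level of at least 1. It called 8 of them, 4 higher and 4 lower, at an adjusted p below 0.05. That share, 13.6%, was close to the 13.8% of all 19095 genes tested that this test called, so the number of calls does not set the Wnt genes apart. The median difference of the 59 members was -0.08, beside -0.04 over all genes tested. By direction, the test called 7.37% of all genes higher and 6.46% lower. At an unadjusted p below 0.05 in the authors' deposited table there were 6 higher and 5 lower members, where 20.9% of all genes reached that p (9.86% higher and 11.1% lower). The calls depended on the trend of spread over level: with the trend left out of the shrinkage, Wnt11 was the single member called. Fzd3 and Rnf43 were not called once a trend over exon length had been removed from the differences. Rnf43 also lost its call when the differences were centred on a trend over level. The FDR of Wnt11 rests on the full table too, since readjusting the deposited p-values over genes at a level of at least 1 gave an adjusted p of 0.0584.

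**Figure D1:**
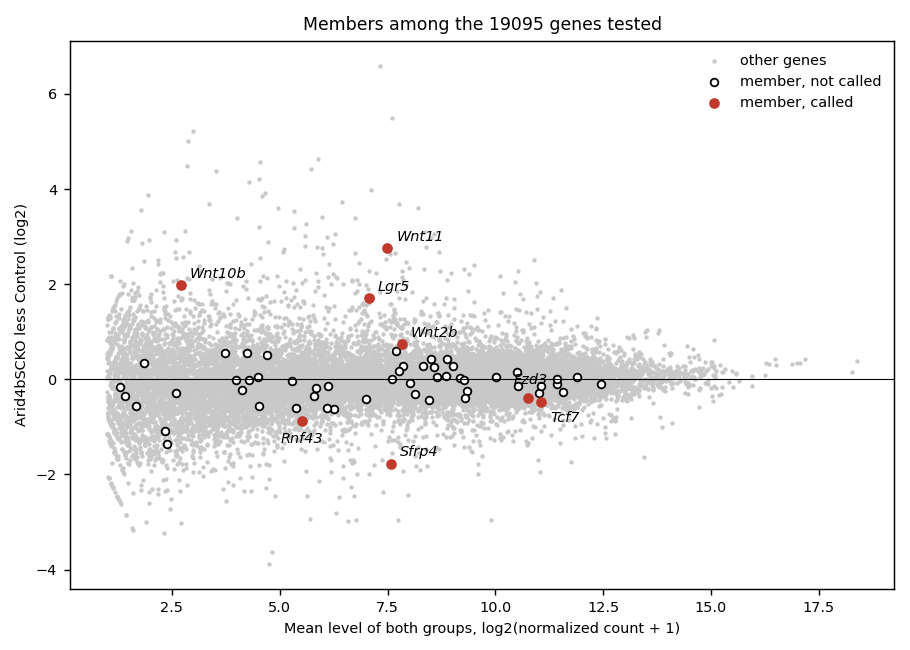
Difference between Arid4bSCKO and control (log2, vertical axis) against the mean level of both groups (log2(normalized count + 1), horizontal axis) for the 19095 genes tested. Each point is a gene; the 8 called members are filled and named, with Wnt11 at 2.76 and Sfrp4 at -1.77 lying farthest from 0 among members above a level of 7.

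The start sites of Wnt11 and Wnt2b are shown first. Wnt11 had the largest difference of all members and its RNA can start at separate promoters, and Wnt2b was the other ligand gene called above 3 reads in both groups. The window of Wnt10b, the remaining ligand gene called, held none of the motifs searched and is not shown. Wnt11 lies on chromosome 7 from 98835112 to 98854747 (mm10, plus strand). RefSeq gives it 2 start regions, and the windows below hold 250 bases before and 50 after each start (RefSeq promoter table, GRCm38.p6). The third window is the start of Wnt2b, on the minus strand of chromosome 3. Capitals mark a match to the TCF/LEF letters CTTTGAT on either strand.
Wnt11 upstream start, chr7:98834862-98835161, plus strand: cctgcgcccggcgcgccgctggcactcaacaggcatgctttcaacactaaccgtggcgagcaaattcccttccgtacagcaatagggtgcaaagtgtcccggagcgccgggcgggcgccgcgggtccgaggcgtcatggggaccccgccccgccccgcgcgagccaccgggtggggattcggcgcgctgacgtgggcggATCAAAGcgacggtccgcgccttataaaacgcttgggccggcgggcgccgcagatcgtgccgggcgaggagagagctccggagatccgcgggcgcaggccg
Wnt11 downstream start, chr7:98838595-98838894, plus strand: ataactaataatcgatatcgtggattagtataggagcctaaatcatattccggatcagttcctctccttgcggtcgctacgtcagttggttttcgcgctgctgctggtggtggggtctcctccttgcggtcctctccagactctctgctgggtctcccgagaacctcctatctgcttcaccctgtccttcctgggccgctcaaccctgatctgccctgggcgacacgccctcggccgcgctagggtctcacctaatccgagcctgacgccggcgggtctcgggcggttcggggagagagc
Wnt2b start, chr3:104961660-104961959, minus strand: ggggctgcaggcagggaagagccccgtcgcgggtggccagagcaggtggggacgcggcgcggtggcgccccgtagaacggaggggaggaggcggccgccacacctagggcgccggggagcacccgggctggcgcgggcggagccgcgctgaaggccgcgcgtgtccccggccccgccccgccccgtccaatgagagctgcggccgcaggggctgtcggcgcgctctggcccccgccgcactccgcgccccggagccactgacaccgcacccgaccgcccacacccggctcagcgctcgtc
The upstream Wnt11 window held 1 TCF/LEF match, which begins at position -51 relative to the start, and the other windows held none. Of all 32851 promoter windows in the table, 3.73% held this motif, and so did 2 of the 49 windows that matched 41 of the members, those of Wnt11 and Wnt5b. The AP-1 letters TGANTCA were in windows of Ror2 and Wnt5b and in 7.81% of all windows. The SF1 letters AAGGTCA were in a window of Tcf7 and in 4.72% of all windows. All 3 motifs were searched on both strands, and the capitals mark the only match to any of them in the windows shown. The deposited gene-level values do not separate the Wnt11 start sites, so which of them carried the reads is not known from these values.

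Among the 19 ligand genes, Wnt11 changed most. This ligand is best known for signalling without beta-catenin in cell movement and in branching of the kidney duct. Its level was 8.87 in Arid4bSCKO and 6.11 in control, or 468 and 68.1 normalized counts. The difference of 2.76 (95% interval 2.30 to 3.22) is a 6.79-fold rise, with a moderated adjusted p of 6.05e-06. The ratio of medians in the authors' deposited table was 2.84 on the log2 scale, so mean and median gave similar sizes for this gene. Per kilobase of exon, Wnt11 had 129.6 normalized counts in Arid4bSCKO and 18.8 in control. On that scale it lay above Wnt4 (112) in Arid4bSCKO and below Wnt4 (107) and Wnt2 (26.8) in control, an order given without a test.

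Wnt2b, a ligand of the beta-catenin branch known from lung and eye development, was the other ligand gene called at a moderate level. It stood at 8.21 in Arid4bSCKO and 7.47 in control, a 1.67-fold rise (difference 0.74, 95% interval 0.36 to 1.12, adjusted p = 0.00872). Wnt10b, known for its part in mammary and bone development, had levels of 3.70 in Arid4bSCKO and 1.72 in control. The control level corresponds to 2.30 normalized counts, less than the 3.68 that 3 reads are worth there, so no fold is given. Its difference of 1.97 had a wide interval (0.28 to 3.66, adjusted p = 0.0439), and it was no longer tested once a minimum level of 3 was set.

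The ligand genes with the most reads per length were not called. Wnt6 had 1327 normalized counts per kilobase in Arid4bSCKO and 1607 in control, a difference of -0.28 (95% interval -0.79 to 0.24). Wnt5a had 390.4 in Arid4bSCKO and 389 in control, and its interval of -0.20 to 0.22 leaves room for a change of up to 0.22 on the log2 scale. Per kilobase in control, Wnt5b, Wnt4 and Wnt9a followed. Wnt5b had a difference of 0.27 (95% interval -0.06 to 0.60), Wnt9a of 0.28 (-0.13 to 0.69). Wnt4, the ligand gene of the ovarian path, was at a level of 8.88 in Arid4bSCKO and 8.81 in control (difference 0.07, 95% interval -0.38 to 0.52). Wnt2 and Wnt3 were read at low levels (5.76 and 5.07 in Arid4bSCKO, 5.94 and 5.68 in control), without a call. Wnt7a, Wnt7b and Wnt10a lay between 2.44 and 4.52 in Arid4bSCKO and between 2.73 and 3.97 in control. Wnt3a and Wnt9b lay below 3 reads in Arid4bSCKO, at levels of 1.80 and 1.71, against 2.89 and 3.07 in control, and neither was called. Wnt16, Wnt8a, Wnt8b and Wnt1 lay below 3 reads in both groups, and Wnt1 was listed at 0 in Arid4bSCKO, with a control mean that matches 1 read in 1 library.

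**Figure D2:**
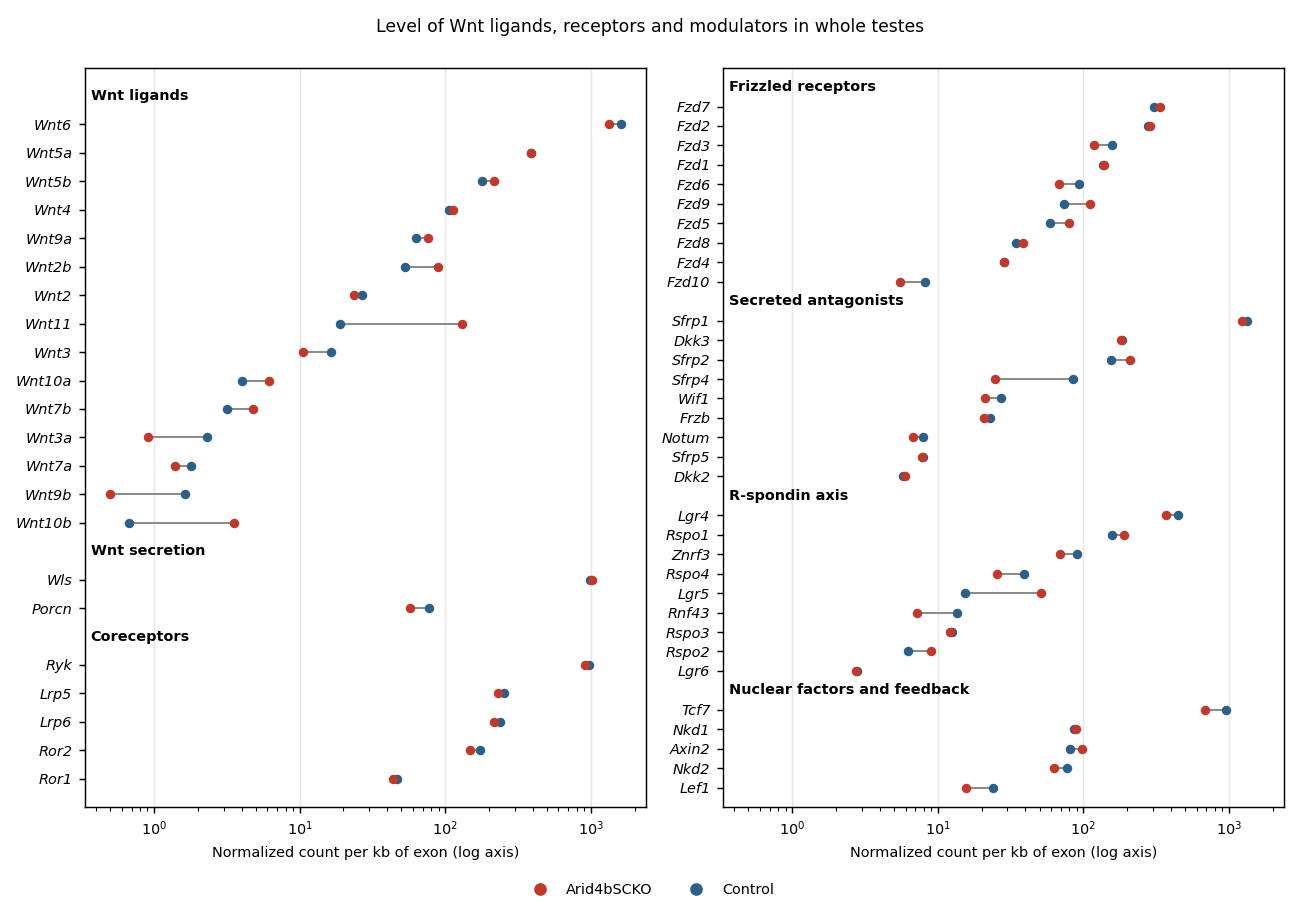
Normalized counts per kilobase of exon (log axis) of the 55 members that reached 3 reads in at least 1 group, with the Arid4bSCKO and control value of each gene joined by a line and genes grouped by role and ordered by control level. Wnt6, Sfrp1, Wls and Ryk have the highest control values of their groups, and among genes above 10 in control the longest lines are those of Wnt11, Sfrp4 and Lgr5.

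Several Wnt genes lie beside each other in the genome, and the differences of 4 such pairs follow. Wnt10b and Wnt1 are 11.7 kb apart on chromosome 15, with differences of 1.97 and -0.39. Wnt6 and Wnt10a are 6.70 kb apart on chromosome 1, at -0.28 and 0.56. Wnt3a and Wnt9a are 16.2 kb apart on chromosome 11, at -1.08 and 0.28. Wnt9b and Wnt3, 24.4 kb apart on the same chromosome, were both lower in the mean (-1.37 and -0.61). Of these 8 genes only Wnt10b was called, and Wnt1, Wnt3a, Wnt9b and Wnt10b lay below 3 reads in at least 1 group. The 4 pairs are therefore given as values, without a reading of their signs. Wnt11 and Wnt2b have no other member within 100 kb.

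The secretion genes did not pass the test. Wls, which ferries Wnt proteins to the surface, had a level of 11.90 in Arid4bSCKO and 11.86 in control, with an interval of -0.16 to 0.24 for the difference. Porcn, the acyltransferase gene, was at 6.79 in Arid4bSCKO and 7.21 in control (difference -0.42, 95% interval -0.98 to 0.13).

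Of the 10 Frizzled receptor genes 1 was called. Fzd3 is known for planar polarity and the guidance of axons. It stood at 10.57 in Arid4bSCKO and 10.97 in control, or 75.8% of control (difference -0.40, 95% interval -0.64 to -0.16, adjusted p = 0.0142). Once a trend over exon length had been removed from the differences, its difference was -0.22 and it was not called (adjusted p = 0.141). Fzd5 and Fzd9 lay just outside the threshold in the other direction. Fzd5 was at 9.10 in Arid4bSCKO and 8.67 in control (difference 0.42, 95% interval 0.01 to 0.83, adjusted p = 0.0528), and Fzd9 at 7.99 in Arid4bSCKO and 7.40 in control (adjusted p = 0.0519). The authors' deposited table gave both an FDR above 0.05 (0.228 and 0.245). Fzd6, a planar polarity receptor gene like Fzd3, was at 8.23 in Arid4bSCKO and 8.67 in control, and was not called. Per kilobase, Fzd7 (338 in Arid4bSCKO and 303 in control) and Fzd2 (289 and 279) were the most abundant, and their differences of 0.16 and 0.05 were not called. Fzd1, Fzd4 and Fzd8 differed by 0.02 to 0.18, and Fzd10 by -0.56 at low levels.

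None of the 5 coreceptor genes was called, and their differences lay between -0.24 and -0.08. Ryk had the most normalized counts per kilobase of them, 906 in Arid4bSCKO and 969.9 in control. Its level was 11.37 in Arid4bSCKO and 11.47 in control (difference -0.10, 95% interval -0.22 to 0.03). Lrp6 was at 10.98 in Arid4bSCKO and 11.13 in control, and Lrp5 at 10.45 and 10.58. Ror2, a receptor of WNT5A, was at 9.23 in Arid4bSCKO and 9.47 in control, and Ror1 at 7.98 and 8.07. All 5 differences were negative, as were those of 11764 of all 22320 genes, and each of the 5 intervals included 0. No test of the group was made. Longer genes tended to be lower in Arid4bSCKO (Spearman correlation of difference and exon length -0.21), and the part of length in these signs was not tested.

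Among the 11 genes of secreted antagonists, Sfrp4 was called and was lower. It encodes a Frizzled-related protein that binds Wnt ligands outside the cell. Its level was 6.69 in Arid4bSCKO and 8.47 in control, or 103 and 353 normalized counts, which is 29.3% of control. The difference of -1.77 had a wide interval of -3.20 to -0.34 (adjusted p = 0.0270), and its FDR was 0.180 in the authors' deposited table. The ratio of medians for Sfrp4 was larger in size than the difference of means, at -2.19 on the log2 scale. The pools varied more for Sfrp4 than for Wnt11, with SDs of 0.63 and 0.20 derived from the deposited p. Its relative Sfrp2 was not called, at 8.71 in Arid4bSCKO and 8.29 in control (difference 0.42, 95% interval 0.02 to 0.83, adjusted p = 0.0626). Sfrp1, the antagonist gene read most, had 1234 normalized counts per kilobase in Arid4bSCKO and 1323 in control, a difference of -0.10 (-0.29 to 0.09). Dkk3, a divergent Dickkopf gene, was at 9.26 in Arid4bSCKO and 9.27 in control. Wif1, a secreted binder of Wnt ligands, was at 5.62 and 5.98 (difference -0.36, 95% interval -0.65 to -0.06). Its adjusted p in the moderated test was 0.316. Frzb, Dkk2, Notum and Sfrp5 had levels of 3.97 to 6.05 in Arid4bSCKO and 3.99 to 6.18 in control, without a call. Dkk1, the classical LRP6 inhibitor gene, and Dkk4 lay below 3 reads in both groups, and the control mean of Dkk4 matches 1 read in each library to within 0.0012.

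In the R-spondin group, 1 gene was called in each direction. Lgr5, an R-spondin receptor gene that marks stem cells of several epithelia and is itself a Wnt target, was at 7.91 in Arid4bSCKO and 6.21 in control. That is 239.7 and 72.8 normalized counts and a 3.26-fold rise (difference 1.70, 95% interval 0.82 to 2.59, adjusted p = 0.00151), and the authors' deposited table gave it FDR = 0.116. A gene on the opposite strand, A930009A15Rik, overlaps Lgr5, and whether the counting used strand is not given in the sources used here. It was listed at 0 in Arid4bSCKO and at a level of 0.78 in control. Rnf43, which encodes a ligase that removes Frizzled proteins, was at 5.08 in Arid4bSCKO and 5.96 in control, or 54.2% of control (difference -0.88, 95% interval -1.45 to -0.31, adjusted p = 0.0415). Centring the differences on a trend over level or over length left differences of -0.79 in both cases, with adjusted p-values of 0.0639 and 0.0646, so it was then not called. The same-strand intronic RNA 1110028F11Rik lies within Rnf43 and had a level of 1.41 in Arid4bSCKO and 0 in control. Its partner gene Znrf3 was at 9.09 in Arid4bSCKO and 9.48 in control, and its interval for the difference, -0.92 to 0.13, included 0.

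The R-spondin genes themselves were not called. Rspo1, the ovarian determinant, was at 8.46 in Arid4bSCKO and 8.17 in control (difference 0.28, 95% interval -0.30 to 0.87). It had 191 normalized counts per kilobase in Arid4bSCKO and 157 in control, above the other R-spondin genes. Rspo4 was at 5.94 in Arid4bSCKO and 6.56 in control, Rspo2 at 4.97 and 4.45, and Rspo3 at 5.26 and 5.30. Lgr4, another R-spondin receptor gene, was at 10.87 in Arid4bSCKO and 11.15 in control (difference -0.29, 95% interval -0.59 to 0.01, adjusted p = 0.0721). Per length, Lgr4 lay above Lgr5, at 369 normalized counts per kilobase in Arid4bSCKO and 450.1 in control, where Lgr5 had 50.8 in Arid4bSCKO and 15.5 in control. Lgr6 was at 4.28 in Arid4bSCKO and 4.30 in control.

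**Figure D3:**
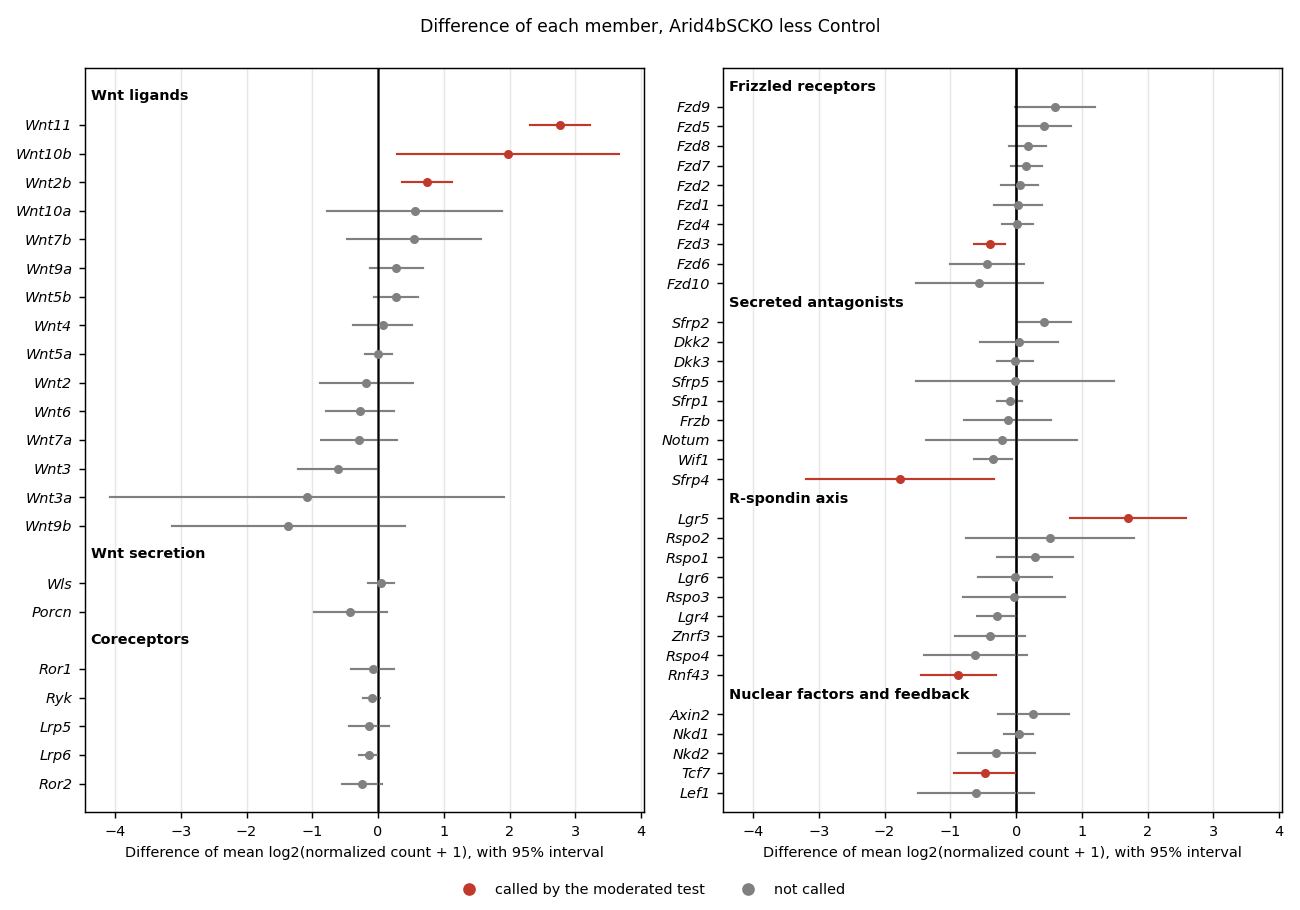
Difference of each of the same 55 members between Arid4bSCKO and control on the log2(normalized count + 1) scale (horizontal axis), with its 95% interval as a bar, grouped by role and ordered by difference. Red marks the 8 members called by the moderated test, among which Wnt11 (2.30 to 3.22) has the narrowest interval relative to its size.

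Of the 5 nuclear and feedback genes, Tcf7 was called. It encodes TCF1, one of the DNA-binding partners of beta-catenin. Its level was 10.82 in Arid4bSCKO and 11.30 in control, or 71.8% of control (difference -0.48, 95% interval -0.94 to -0.01, adjusted p = 0.0269). An antisense RNA gene overlaps Tcf7 and is not a row of the table. Same-strand RNA genes that are also not rows overlap Tcf7 (Gm26551), Wnt2b (Gm43846) and Fzd3 (Gm27263). Their part in the counts of these genes was not tested. Lef1, the related factor gene, was at 5.80 in Arid4bSCKO and 6.41 in control, with an interval of -1.49 to 0.27. Axin2, a feedback inhibitor whose RNA is widely read as a sign of beta-catenin signalling, was at 8.70 in Arid4bSCKO and 8.44 in control (difference 0.26, 95% interval -0.28 to 0.80, adjusted p = 0.298). Nkd1, another feedback gene, was at 8.67 in Arid4bSCKO and 8.63 in control, and Nkd2 at 7.99 and 8.29. The target genes Axin2, Nkd1, Lef1 and Lgr5 therefore did not share one direction in the mean, and of these only Lgr5 was called. Nkd1, at 0.04 by means and -0.01 by medians, had no clear direction. Among the other feedback genes, Tcf7 was called lower and Nkd2 differed by -0.30 without a call. Of the ligase genes given above, Rnf43 was called lower and Znrf3 differed by -0.40 without a call.

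Further genes of the pathway were taken from a list of 86 symbols, 82 of which were in the table. The moderated test called 14 of the 81 tested, 5 higher and 9 lower, beside the 13.8% of all genes called. Of the 82 genes, 24 had an unadjusted p below 0.05 in the authors' deposited table, where 20.9% of all genes did. The median difference over the list was -0.07. Inside the cell, Ctnnb1, the beta-catenin gene, was at 14.26 in Arid4bSCKO and 14.55 in control (difference -0.29, 95% interval -0.46 to -0.12, adjusted p = 0.0445). Axin1, the scaffold of the complex that destroys beta-catenin, was at 11.13 in Arid4bSCKO and 11.40 in control (-0.27, -0.39 to -0.15). Chd8, a chromatin remodeller that binds beta-catenin, was at 11.38 and 11.82 (-0.44, -0.64 to -0.23). Ctnnb1 and Axin1 were not called once a trend over exon length had been removed (differences of -0.23 and -0.21), and Ctnnb1 was not called with the trend on level but without robust fitting (adjusted p = 0.0587). Cxxc4, which encodes an inhibitor of Dishevelled, was at 7.69 in Arid4bSCKO and 8.73 in control (-1.04, -1.23 to -0.85) and also passed the authors' FDR in their deposited table (0.0432).

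On the cell surface, Gpc4, a glypican gene, was called higher at 11.80 in Arid4bSCKO and 11.43 in control (difference 0.37, 95% interval 0.26 to 0.48). Daam1, a formin gene of the planar polarity branch, was called higher at 10.88 in Arid4bSCKO and 10.05 in control (0.83, 0.31 to 1.36). Prickle1 and Prickle2, planar polarity genes, were called lower, at differences of -0.48 and -0.47, and Prickle2 lost its call once the trend over exon length had been removed. Nfatc1, a calcium-responsive factor gene, was called higher at 8.54 in Arid4bSCKO and 7.35 in control (1.19, 0.46 to 1.92). Among genes often listed as targets, Cd44 was called higher at 10.82 in Arid4bSCKO and 9.40 in control (difference 1.42, 95% interval 0.65 to 2.18). Myc was called higher at 10.13 in Arid4bSCKO and 8.77 in control (1.36, 0.38 to 2.33). T, the brachyury gene, was called lower at 4.33 in Arid4bSCKO and 5.77 in control (-1.44, -2.33 to -0.55). The other target genes of the list in the table had no call. Ccnd1 differed by 0.01, Tnfrsf19 by -0.03, Ascl2 by 0.16, Sp5 by 0.19, Bmp4 by -0.16 and Bambi by -0.29. Vcan was at a level of 11.83 in Arid4bSCKO and 11.82 in control, Wisp1 was at 11.54 in both, and Sp8 and Cdx2 lay below 3 reads in both groups. Shisa2 and Cxxc5 were the other called genes, lower at -0.98 and -0.55. Nkx1-2 had a level of 2.18 in Arid4bSCKO and was listed at 0 in control. Its 3.53 normalized counts in Arid4bSCKO are below the 4.03 that 3 reads are worth there, so it lay below 3 reads in both groups. It passed the authors' FDR in their deposited table (0.0238) but not the moderated test (adjusted p = 0.0547). The immediate-early genes and macrophage markers given above were higher in the same comparison as Cd44 and Myc, and their part in it was not tested.

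**Figure D4:**
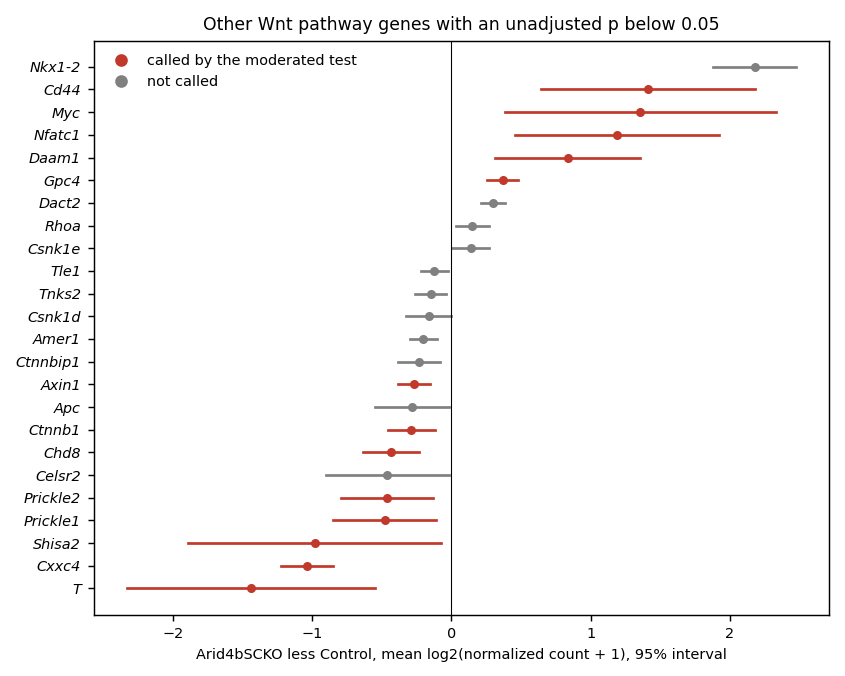
Difference between Arid4bSCKO and control, with its 95% interval, of the 24 other pathway genes with an unadjusted p below 0.05 in the authors' deposited table, ordered by difference. Red marks the genes called by the moderated test; Nkx1-2, Cd44, Myc and Nfatc1 lie above 1, and T and Cxxc4 lie below -1.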

How the data were processed

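Per the labels' protocols, total RNA from pools of testes was purified, treated with DNase and made into stranded poly(A) libraries that were read from both ends. The submitters' processing notes list STAR 2.4 and mm10. The sources used here do not give the counting tool, its use of strand or the kind of normalization. Per the file headers and column descriptions, the authors deposited group means of log2 normalized counts, a log2 ratio of group medians, an unadjusted p-value (equal-variance comparison) and a Benjamini-Hochberg FDR for 22320 genes. An offset of 1 is read from the values.

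The standard error of each difference was derived from the deposited p-value (4 degrees of freedom). Variances of the 19095 genes at or above a level of 1, averaged over both groups, were shrunk with limma 3.58.1 (squeezeVar, trend on level, robust fitting) in R 4.3.3, with Benjamini-Hochberg adjustment over the same genes. Another 529 rows, whose value matched 0.1 log2 in 1 Arid4bSCKO library and 0 in control, were left out of all moderated tests. The procedure was also run on simulated independent counts, whose spread was set rather than taken from these pools. No result here rests on that run. The worth of a read came from genes read in 1 library, and floors of 3 reads cover counting error only. Exon lengths came from the GENCODE M21 basic set and were found for 61 members and for 85.4% of all genes. Starts in the table count from 0 and were raised by 1.

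The moderated test, the members and the gene lists were chosen with earlier results of these data known. The naming rule took the members called, the highest in each role, those differing by at least 1 above a level of 3, gonad-linked members, and up to 10 called pathway genes by smallest deposited p. Other genes were given more briefly, or with an interval where they lay near a threshold, as chosen after their values were seen. Whether pools shared litters is not stated in the labels, so the p-values cover only variation among the pools sequenced, which may be technical.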

Additional observations from a re-analysis of the deposited data

How the results depend on the processing

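No paired analysis was possible because the table holds group means and no value per library, and for the same reason leaving out a pool and another offset were not run. Readjusting the deposited p-values over genes at a level of 1 or more left 2 genes higher and 0 lower, with 0 Wnt members and 0 other pathway genes in either direction (Wnt11 then had an adjusted p of 0.0584). An unadjusted p below 0.05 gave 2200 genes higher and 2473 lower, 6 and 5 members, and 9 and 15 other pathway genes. The moderated test without trend and robust fitting called 164 genes higher and 73 lower, 1 and 0 members (Wnt11), and 1 and 1 other pathway genes (Nkx1-2 and Cxxc4). Another 2 alternatives were added after the data had been seen. Robust fitting without the trend called 99 and 36 genes, 1 and 0 members, and 1 and 1 other pathway genes. The trend without robust fitting kept all 8 members. Removing a trend over exon length left 1478 genes called higher and 771 lower, where the main test called 1408 and 1233. Then 2 members were called lower, without Fzd3 and Rnf43, while Fzd5 was added. Over the genes tested with a known length, the Spearman correlation of difference and exon length was -0.21. Longer genes thus tended to be lower in Arid4bSCKO. A minimum level of 3 dropped Wnt10b and added Fzd5 and Fzd9, and centring over level dropped Rnf43 and added the same 2. With no minimum level the same 8 members were called. None of the 8 called members changed direction under these alternatives. Of the 61 members, 53 had the same sign in the authors' deposited table of median ratios, and the uncalled Wnt5a, Wnt8a, Wnt8b, Wnt1, Notum, Sfrp5, Rspo3 and Nkd1 did not. The causes of lost calls were not tested. Values per pool were not analysed here, so the weight of a single pool in any difference is not known.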

Other observations

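Heparan sulphate proteoglycans bind Wnt proteins at the cell surface, and their genes were read beside the members, as whole families picked after the table had been seen. Of the 12 genes of the glypicans, syndecans and sulfatases, 2 were called higher and 0 lower by the moderated test, where 13.8% of all genes were called. Sdc4, a syndecan gene of focal adhesions, was at 13.53 in Arid4bSCKO and 12.67 in control (difference 0.87, 95% interval 0.62 to 1.12, adjusted p = 2.82e-04). Gpc4, given above, was the other. Gpc3, the most highly read glypican per length, was at 13.30 in Arid4bSCKO and 13.42 in control, and the sulfatase genes Sulf1 and Sulf2, which trim heparan sulphate, differed by 0.26 and -0.14 without a call.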
